A study of Mus musculus with 16 samples.

Results

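Mouse livers taken 30 days after tamoxifen were compared with livers taken 9 days after it, in mice given only the vehicle DMSO. The libraries were chosen by their labels alone, as the vehicle-treated WT and Arid1a KO livers of both times, which are 8 of the 16 libraries of the series. The groups were Arid1a KO at 30 days, WT at 30 days, Arid1a KO at 9 days and WT at 9 days, with 2 libraries each. All 8 mice had received tamoxifen and DMSO, and no liver without tamoxifen is analysed here, so neither time is an untreated baseline. Tamoxifen is a ligand of the oestrogen receptors and is used in such mice to switch on a Cre recombinase that deletes a floxed gene. The WT column names carry the prefix ALB, the labels used here state neither the promoter of the recombinase nor the age of the mice, and the series states 2 biological replicates per condition. The study itself also covers livers without Arid1a and Arid1b, livers from mice given an agonist, and liver tumours.

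The liver differs between male and female mice in the RNA of many enzymes, transporters and secreted proteins. In mice much of this difference follows the pituitary's release of growth hormone, which comes in pulses in males and nearly continuously in females and acts on hepatocytes through the receptor Ghr, the kinase Jak2 and the transcription factor Stat5b. Bcl6 is known as a male-biased repressor in this system and Cux2 as a female-biased regulator. Oestrogen acts on the liver both through its own receptor Esr1 in hepatocytes and through the pituitary.

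Total counts were 10.3 to 28.2 M in the 30-day libraries and 13.5 to 30.8 M in the 9-day libraries, with replicate 1 the shallower one in each group. Expression is given as CPM scaled by TMM over these 8 libraries. Where 4 values are given for one time, they belong to Arid1a KO replicates 1 and 2 and then to WT replicates 1 and 2. The replicates of Arid1a KO at 30 days were the least alike (Pearson's r of log2 CPM across genes 0.949, against 0.972 to 0.977 in the other 3 groups). Arid1a, the targeted gene on chromosome 4 at 133679008 to 133756769 (GRCm38, minus strand), stood at 87.7 and 71.4 CPM in the 30-day and 82.1 and 85.1 CPM in the 9-day livers labelled Arid1a KO. Its WT values were 97.3 and 80.4 CPM at 30 days and 67.5 and 73.1 CPM at 9 days. A count over the whole gene includes exons outside any deleted part, so it checks none of the genotype labels. The Y-linked Ddx3y was read at 57.1 to 89.9 CPM in the 8 livers, while Xist, which females transcribe from the inactive X, had 1 to 8 counts per library. These 8 livers therefore carry the transcripts of male mice at both times. The labels name hepatocytes as the cell type and the series describes whole tissue. Hepatocyte markers summed to 39716 to 55544 CPM at 30 days and 37237 to 64107 CPM at 9 days, and markers of endothelial, stellate and Kupffer cells were present in every library. In such bulk RNA, fewer cells of a type and less RNA per cell cannot be told apart.

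Between 30 and 9 days 49 of 15956 genes passed the test, which is 0.307%. Of these, 18 rose (0.113% of the genes tested) and 31 fell (0.194%). Genes counted as rising or falling had a Benjamini-Hochberg adjusted p under 0.05 in edgeR's quasi-likelihood F test with genotype as a block. The median log2 fold change of all genes, 30 over 9 days, was -0.012. Genes of female-biased liver metabolism were among those with the largest falls. The male-biased Hsd3b5 and Cyp4a12b had the largest rises among the called genes named by rule. The count itself rests on single libraries. It was 422 without Arid1a KO replicate 2 of 30 days and 14 without WT replicate 2 of 9 days. It was 17 without WT replicate 1 of 30 days, 30 without Arid1a KO replicate 1 of 9 days and 31 without WT replicate 1 of 9 days. The direction of all 49 genes was kept in each of these 5 fits. Of 28 called genes named by rule, 9 were called in all 8 fits that left out 1 library, namely Hsd3b5, Adgrf1, Alas2, Nox4, Slc22a26, Slc22a27, Cyp2c40, Cyp2c69 and Inf2. Calls were lost for 17 of the 28 without WT replicate 1 of 30 days and for 16 without WT replicate 2 of 9 days. Without the replicates 1 and 2 of 9-day Arid1a KO 10 and 11 were lost, and without WT replicate 1 of 9 days 9. Without Arid1a KO replicate 1 or WT replicate 2 of 30 days 7 and 6 were lost, and none without Arid1a KO replicate 2 of 30 days.

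**Figure D1:**
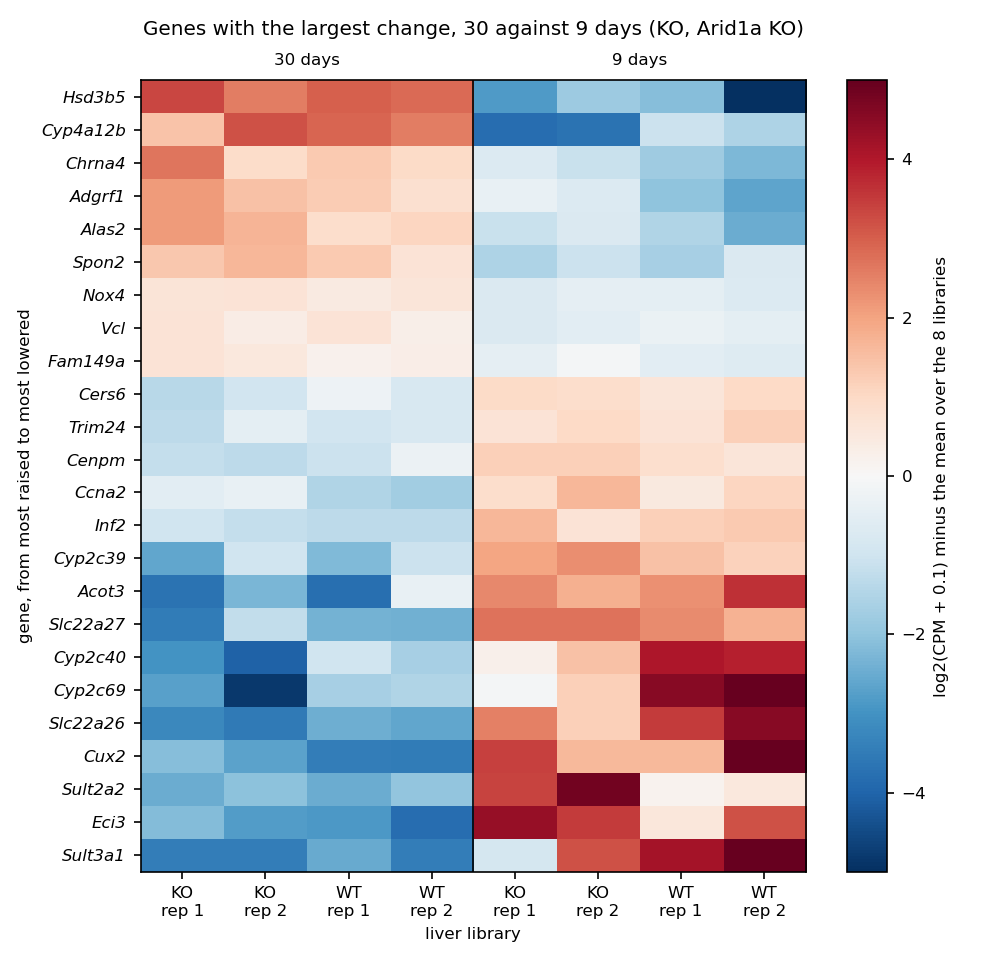
Levels of the 9 rising and 15 falling genes chosen by size of change, in the 4 livers of 30 days (left) and the 4 of 9 days (right); colour gives log2(CPM + 0.1) minus the gene's mean over the 8 libraries, with the scale ending at -5 and 5. In each row all 4 libraries of 30 days lie on one side of all 4 libraries of 9 days, which the choice of these genes required.

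Female-biased liver genes were lower at 30 days. Of the 23 members of this list, all of which were measured, 8 fell and none rose, against 0.194% of all genes that fell. The median log2 of the 23 members was -4.12, against -0.012 for all genes, and 23 of 23 had a negative log2, as did 51.7% of all genes. The 8 that fell were Slc22a26, Slc22a27, Sult2a2, Sult2a1, Acot3, Sult3a1, Cyp3a41b and Cux2. This list, like the others used here, was chosen with earlier results of these data known. Its counts are therefore a description and not a test, and neighbouring family members in it are not independent. For 10 of the 23 members the 4 libraries of 30 days lay below the 4 of 9 days, as for 4.24% of all genes. The count of 8 ran from 2 without WT replicate 1 of 30 days to 13 without Arid1a KO replicate 2 of 30 days, and it was 3 without WT replicate 2 of 9 days and 5 without WT replicate 2 of 30 days.

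Among the transporters, Slc22a26 and Slc22a27 encode related members of the organic anion transporter family and lie 61.7 kb apart on chromosome 19. Slc22a26 (7781041 to 7802667, minus strand) had 0.315, 0.238, 0.624 and 0.549 CPM at 30 days, against 22.4, 8.83, 43.5 and 90.7 CPM at 9 days. No library of 30 days reached 1 CPM, and no library of 9 days was below 8. It fell by 6.48 log2 units (SE 0.48, edgeR adjusted p = 0.00369) and was called in 8 of 8 fits that left out 1 library. Slc22a27 stood at 0.105, 0.885, 0.357 and 0.338 CPM at 30 days and at 15.2, 15.2, 12 and 7.67 CPM at 9 days. It fell by 4.71 (SE 0.41, edgeR adjusted p = 0.0049), again in 8 of 8 such fits. Near-identical family members can share reads, and how the authors' counting treated them is not given in the sources used here.

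Sulfotransferases add sulphate to steroids, bile acids and drugs. Sult3a1 had 1 read in all 4 libraries of 30 days, in WT replicate 1, against 0.486, 9.81, 19.6 and 91.8 CPM at 9 days. Over the summed libraries, 1 count against 3564 makes it 3017-fold lower, with a 95% counting interval of 541 to 119180 that covers counting error only. The 9-day livers themselves differed widely, with Arid1a KO replicate 1 at 0.486 CPM, and the call (edgeR adjusted p = 0.0359) held in 4 of 8 fits that left out 1 library (edgeR adjusted p up to 0.188). Sult2a1 and Sult2a2, which sulphate steroids and bile acids, are neighbours 16.6 kb apart on chromosome 7. Sult2a2 had 2 counts at 30 days and 523 at 9 days and was 221-fold lower (counting interval 61 to 1832, edgeR adjusted p = 0.0128). Its 9-day values were 5.70 and 15.6 CPM in Arid1a KO and 0.527 and 0.695 CPM in WT, all above the 30-day maximum of 0.0422 CPM. Sult2a1, with 1 count against 140, was 119-fold lower (interval 20.9 to 4713, edgeR adjusted p = 0.0147). Both were lost without WT replicate 1 of 30 days or WT replicate 2 of 9 days (edgeR adjusted p up to 0.0555).

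Cux2, a homeobox transcription factor that is female-biased in mouse liver, had 1.26, 0.817, 0.446 and 0.422 CPM at 30 days. At 9 days it had 63.6, 18.2, 18.2 and 203 CPM, and the ranges did not overlap. It fell by 6.57 log2 units (SE 1.0, edgeR adjusted p = 0.0447), a call that held in 4 of 8 fits with 1 library left out (edgeR adjusted p up to 0.140). Acot3, a peroxisomal acyl-CoA thioesterase, had 0.841, 2.38, 0.802 and 9.38 CPM at 30 days against 65.0, 42.0, 60.4 and 154 CPM at 9 days. It fell by 4.57 (SE 0.66, edgeR adjusted p = 0.0351) and was called in 3 of 8 such fits (edgeR adjusted p up to 0.112).

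The Cyp3a cluster on chromosome 5 holds close copies of a cytochrome P450, so their separate values are uncertain. Cyp3a41b had 3 counts at 30 days against 464 at 9 days and was 131-fold lower (interval 44.5 to 637, edgeR adjusted p = 0.0447). Its 9-day values were 0 and 0.341 CPM in Arid1a KO and 8.50 and 10.3 CPM in WT, and its groups overlapped. Cyp3a41a had no count in any library of 30 days and 3619 counts over the libraries of 9 days. Against a floor of 3 counts over the 4 libraries, a one-sided limit where the counting intervals above are two-sided, it was at least 1021-fold lower, with an edgeR adjusted p of 0.0525 that does not pass. With this gene set at its bound the median of the female-biased list was again -4.12. The 9-day values of Cyp3a41a were 0.347 and 4.24 CPM in Arid1a KO and 78.6 and 74.2 CPM in WT. Cyp3a44 showed the same split at 9 days, with 4.72 and 4.43 CPM in Arid1a KO and 27.1 and 83.4 CPM in WT, against 0.105 to 0.545 CPM in the 30-day livers. Its pooled edgeR adjusted p was 0.0502. Not all list members moved this far: Cyp2a4 stood at 2.21, 420, 63.2 and 10.6 CPM at 30 days and at 143, 163, 762 and 1179 CPM at 9 days (edgeR adjusted p = 0.640). Cyp2a4, named here after its values were seen, shows 1 liver of 30 days, Arid1a KO replicate 2, inside the 9-day range.

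Cytochrome P450 genes of the Cyp2c cluster on chromosome 19, which were not on the list, also fell. Cyp2c39, Cyp2c68, Cyp2c40 and Cyp2c69 are consecutive among the genes called there, with gaps of 120.3, 26.0 and 30.0 kb. Cyp2c40 (39767071 to 39812814, minus strand) had 0.946, 0.408, 4.10 and 2.49 CPM at 30 days against 9.87, 22.5, 137 and 123 CPM at 9 days. It fell by 5.15 log2 units (SE 0.36, edgeR adjusted p = 0.00369). Cyp2c69 (39842814 to 39886799, minus strand) had 0.631, 0.0681, 1.43 and 1.61 CPM at 30 days against 4.45, 11, 111 and 158 CPM at 9 days. It fell by 6.13 (SE 0.52, edgeR adjusted p = 0.0049). Both were called in 8 of 8 fits with 1 library left out, and at both times the livers labelled Arid1a KO had less of them than the WT livers. Cyp2c39 fell by 3.34 (edgeR adjusted p = 0.0176, in 3 of 8 such fits). Cyp2c68, which was named after its values were seen, stood at 91.8, 109, 99.0 and 128 CPM at 30 days and at 221, 209, 280 and 258 CPM at 9 days (log2 -1.17, SE 0.12, edgeR adjusted p = 0.0117). Its fall was smaller than those of its neighbours.

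RefSeq promoters of GRCm38.p6, from 250 bases before to 50 after the start, were found for 35 of the 49 genes called. They are shown for 4 genes that fell and 1 that rose, picked after their values were seen, because these genes carry matches to 2 short motifs. The motifs, searched on both strands, were TTCNNNGAA, the form bound by STAT5, and ATTGAT, a form bound by HNF6 (Onecut1). Their matches do not overlap in the promoters shown. Capitals mark the matches, and each promoter is written 5′ to 3′ on the strand of its gene.
Cyp2c40, chr19:39812765-39813064, minus strand: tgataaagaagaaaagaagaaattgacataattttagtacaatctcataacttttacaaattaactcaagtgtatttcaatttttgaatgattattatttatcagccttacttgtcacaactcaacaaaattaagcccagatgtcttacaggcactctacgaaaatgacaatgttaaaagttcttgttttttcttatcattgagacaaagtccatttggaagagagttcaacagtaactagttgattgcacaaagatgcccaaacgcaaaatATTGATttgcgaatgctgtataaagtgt
Cyp2c69, chr19:39886720-39887019, minus strand: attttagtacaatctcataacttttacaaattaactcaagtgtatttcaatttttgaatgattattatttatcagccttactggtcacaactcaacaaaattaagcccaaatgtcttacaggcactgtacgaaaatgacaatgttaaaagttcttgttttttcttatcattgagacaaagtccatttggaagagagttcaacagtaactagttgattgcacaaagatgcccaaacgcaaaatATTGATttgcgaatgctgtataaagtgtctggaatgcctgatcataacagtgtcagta
Slc22a26, chr19:7802618-7802917, minus strand: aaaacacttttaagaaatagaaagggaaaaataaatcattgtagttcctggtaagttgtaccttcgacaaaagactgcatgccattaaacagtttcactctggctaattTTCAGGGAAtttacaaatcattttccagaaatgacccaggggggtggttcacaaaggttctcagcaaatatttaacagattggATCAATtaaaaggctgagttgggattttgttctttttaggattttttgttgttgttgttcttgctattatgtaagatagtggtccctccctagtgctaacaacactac
Sult3a1, chr10:33857472-33857771, plus strand: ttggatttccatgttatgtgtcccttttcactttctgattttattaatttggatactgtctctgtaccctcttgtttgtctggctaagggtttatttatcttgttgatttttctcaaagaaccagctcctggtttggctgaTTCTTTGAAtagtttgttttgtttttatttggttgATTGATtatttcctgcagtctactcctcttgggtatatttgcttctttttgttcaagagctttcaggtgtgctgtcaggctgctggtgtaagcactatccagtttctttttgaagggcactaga
Nox4, chr7:87246399-87246698, plus strand: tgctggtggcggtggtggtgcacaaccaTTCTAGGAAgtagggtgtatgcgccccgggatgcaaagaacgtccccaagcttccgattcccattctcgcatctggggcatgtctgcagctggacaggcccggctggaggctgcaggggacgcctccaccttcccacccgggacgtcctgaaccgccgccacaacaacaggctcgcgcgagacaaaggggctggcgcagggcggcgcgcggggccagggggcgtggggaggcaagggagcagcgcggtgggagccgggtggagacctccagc

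Cyp2c40 and Cyp2c69 have nearly the same promoter. With 1 window moved by 30 bases, 267 of 270 bases (98.9%) were identical, and ATTGAT then falls at the same place in both. Slc22a26 and Sult3a1 each hold 1 match to either motif, and in Slc22a26 ATTGAT is on the opposite strand and so is printed as ATCAAT. Nox4, which rose, holds TTCNNNGAA alone. Of the promoters of all genes tested, 8.47% hold TTCNNNGAA and 5.57% hold ATTGAT. Among called genes that fell, 3 of 23 hold TTCNNNGAA and 7 of 23 hold ATTGAT, and among those that rose 1 of 12 and 2 of 12 do. The Cyp2c copies are not independent of each other, and a match is a description of letters, not a binding site.

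Male-biased liver genes were higher at 30 days. Of 19 members, all measured, 3 rose and none fell, against 0.113% of all genes that rose. These were Hsd3b5, Cyp4a12b and Cyp2u1. The median log2 of the list was 1.43, with 18 of 19 members above 0 against 48.3% of all genes, and 8 of 19 did not overlap between the times, as for 2.83% of all genes in this direction. An unadjusted p under 0.05 was reached by 14 of 19 members and by 6.49% of all genes, counting those higher at 30 days. The count of 3 was 8 without Arid1a KO replicate 2 of 30 days, and 1 without WT replicate 1 of 30 days or without WT replicate 2 of 9 days.

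Hsd3b5, a steroid dehydrogenase of male mouse liver on chromosome 3 (98618634 to 98630252, minus strand), had 353, 206, 279 and 247 CPM at 30 days. At 9 days it had 4.79, 9.89, 7.90 and 0.997 CPM. Every liver of 30 days was above 200 CPM and every liver of 9 days below 10. It rose by 5.59 log2 units (SE 0.62, edgeR adjusted p = 0.0128) and was called in 8 of 8 fits with 1 library left out. Cyp4a12b, a fatty acid hydroxylase, had 19.2, 64.5, 53.1 and 42.4 CPM at 30 days against 0.417, 0.455, 3.31 and 2.39 CPM at 9 days (log2 5.05, SE 0.59, edgeR adjusted p = 0.0147), a call lost without WT replicate 1 of 30 days or WT replicate 2 of 9 days (edgeR adjusted p up to 0.0676). Its near copy Cyp4a12a stood at 1065.8, 769.9, 652 and 211 CPM at 30 days and 16.7, 71.2, 30.4 and 4.56 CPM at 9 days, with no overlap and an edgeR adjusted p of 0.0525. Cyp2u1, another P450, rose by 1.52 (SE 0.19, edgeR adjusted p = 0.0188) with overlapping groups, at 22.9, 15.4, 39.1 and 59.9 CPM at 30 days against 7.78, 7.05, 17.2 and 13.9 CPM at 9 days. Within each genotype its groups did not overlap, and its call held in 3 of 8 fits with 1 library left out.

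The elongase Elovl3, named after its values were seen, showed how unequal the 30-day livers were. It stood at 1030.6, 11.1, 345 and 97.6 CPM at 30 days against 1.81, 2.08, 9.56 and 1.75 CPM at 9 days (log2 6.64, SE 1.46, edgeR adjusted p = 0.0883). All 4 livers of 30 days were above all 4 of 9 days, and Arid1a KO replicate 2 was the lowest of the 30-day livers. Major urinary proteins, pheromone carriers made by the liver, had 19 of 19 members above 0, against 48.3% of all genes, and a median log2 of 2.75. Of the 19, 1 rose, against 0.113% of all genes. That was Mup21, at 1241, 532, 65.5 and 232 CPM at 30 days and 74.9, 102, 20.7 and 9.10 CPM at 9 days (log2 3.33, SE 0.48, edgeR adjusted p = 0.0351, in 2 of 8 fits with 1 library left out). With only replicate 2 of the 30-day livers the median of this family was 0.41 and 13 of 19 members were above 0. Without Arid1a KO replicate 2 of 30 days 7 of the 19 were called. These genes are near-identical copies on chromosome 4, and reads could be split among them, so single members are uncertain.

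**Figure D2:**
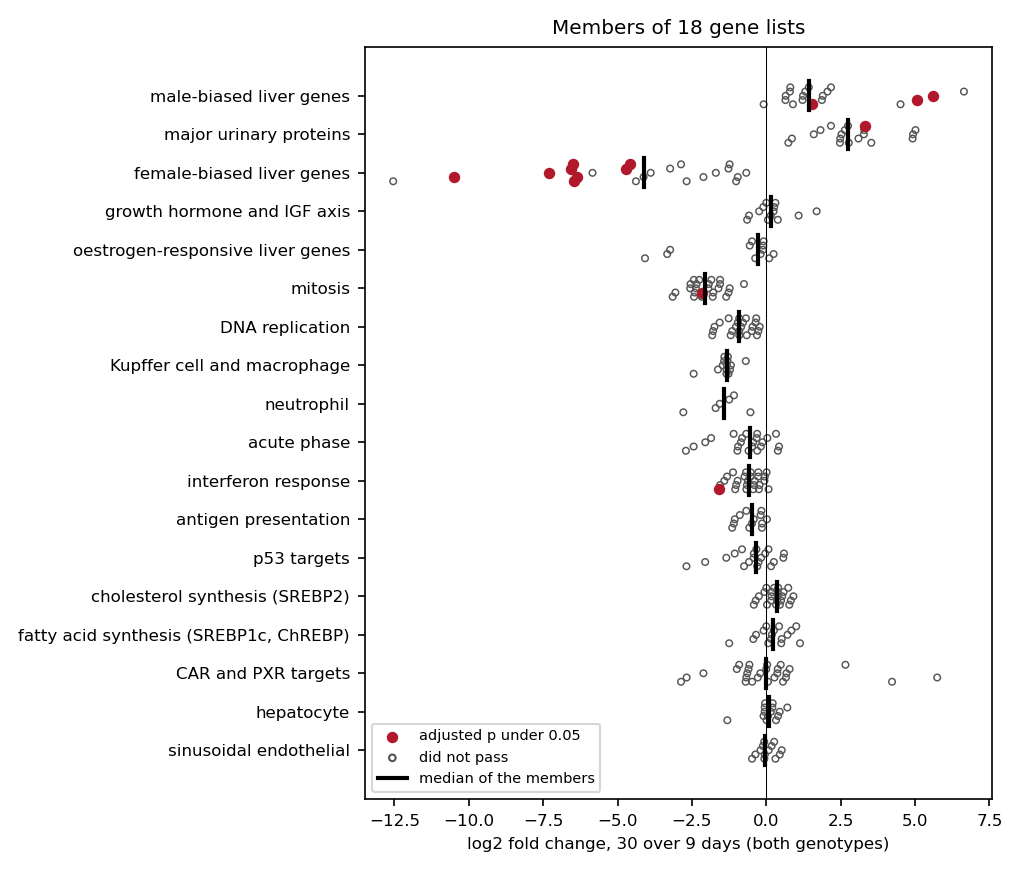
Log2 fold change, 30 over 9 days, of each measured member of 18 gene lists, with filled red points for genes that passed the test, open points for those that did not, and a black bar at the median of the list. Female-biased genes (median -4.12) and mitosis genes (-2.06) lie left of 0, and male-biased genes (1.43) and major urinary proteins (2.75) right of it, while hepatocyte (0.10) and endothelial (-0.05) markers lie around 0.

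No member of the growth hormone and IGF axis list, which holds some signalling genes, regulators and targets, was called. Called genes described above, such as Cux2, Hsd3b5 and Mup21, belong to the sex-biased and major urinary protein lists and are not on it. Of 13 members 8 were higher and 5 lower, with a median log2 of 0.15 and none past the test. Igfals, which carries IGF1 in blood and is made on growth hormone signals, stood at 157, 165, 158 and 158 CPM at 30 days against 252, 222, 242 and 283 CPM at 9 days. These ranges did not overlap, and the difference did not pass (log2 -0.64, SE 0.11, edgeR adjusted p = 0.0567). Igfbp2, a binding protein of the IGFs, had a log2 of 1.09 (edgeR adjusted p = 0.119). The 14 oestrogen-responsive genes had 12 measured members, 10 of them lower, a median of -0.28 and none called. Mme, the membrane protease neprilysin, had 1.47, 3.06, 20.9 and 2.62 CPM at 30 days against 39.2, 23.9, 81.6 and 103 CPM at 9 days (edgeR adjusted p = 0.0581). Greb1, an oestrogen receptor target, had 0, 0.272, 0.0891 and 0 CPM at 30 days against 4.17, 1.25, 0.752 and 1.24 CPM at 9 days (edgeR adjusted p = 0.0700). Both were separated by time in these 8 livers without passing the test over all genes.

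Among called genes named by rule outside these lists, the rises were smaller than that of Hsd3b5. Alas2, the erythroid form of the first enzyme of haem synthesis, on chromosome X at 150547375 to 150570638, had 368, 276, 156 and 178 CPM at 30 days against 39.4, 51.3, 30.0 and 14.9 CPM at 9 days. It rose by 2.87 (SE 0.23, edgeR adjusted p = 0.0049) in 8 of 8 fits with 1 library left out. It was the 1 erythroid marker of 8 measured that passed, against 0.113% of all genes that rose, and the beta globin Hbb-bs stood at 34.5 to 163 CPM at 30 days and 47.5 to 114 CPM at 9 days (log2 0.37, edgeR adjusted p = 0.787). The list's median log2 was 0.16.

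Nox4, a NADPH oxidase that makes hydrogen peroxide, had the most even values of the genes named by size of rise. It stood at 88.9, 90.0, 76.9 and 87.5 CPM at 30 days and at 33.9, 41.9, 40.0 and 35.1 CPM at 9 days (log2 1.19, SE 0.11, edgeR adjusted p = 0.00843). Adgrf1, an adhesion G protein-coupled receptor, had 43.0, 26.9, 23.6 and 17.1 CPM at 30 days against 7.36, 6.02, 2.33 and 1.45 CPM at 9 days (log2 2.88, SE 0.30, edgeR adjusted p = 0.011). Both were called in 8 of 8 fits with 1 library left out. Chrna4, a nicotinic acetylcholine receptor subunit, rose by 3.06 (edgeR adjusted p = 0.0174) and Spon2, a secreted matrix protein, by 2.49 (edgeR adjusted p = 0.0151). Vcl, the adhesion protein vinculin, rose by 1.03 (edgeR adjusted p = 0.0278) and Fam149a by 0.87 (edgeR adjusted p = 0.0188), each in 3 of 8 fits with 1 library left out. Chrna4 was called in 4 of these and Spon2 in 6.

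Among the other falls, Inf2 and Adssl1 are neighbours 4.5 kb apart on chromosome 12. Inf2, a formin that assembles actin filaments (112588784 to 112615557, plus strand), had 166, 144, 132 and 135 CPM at 30 days against 1037, 526, 762 and 817 CPM at 9 days. It fell by 2.45 (SE 0.21, edgeR adjusted p = 0.0049) in 8 of 8 fits with 1 library left out. Adssl1, an enzyme of purine synthesis that was named for its place, stood at 33.2, 46.8, 30.5 and 33.8 CPM at 30 days and 189, 106, 89.0 and 87.4 CPM at 9 days (log2 -1.67, SE 0.21, edgeR adjusted p = 0.0177). In both genes the highest value was that of Arid1a KO replicate 1 of 9 days. Whether the counting used strand is not given in the sources used here.

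Eci3, an enoyl-CoA isomerase of fatty acid oxidation, had 0.210, 0.102, 0.0891 and 0 CPM at 30 days against 28.2, 15.3, 1.96 and 12.7 CPM at 9 days. It fell by 7.40 (SE 0.82, edgeR adjusted p = 0.0128), and was called in 7 of 8 fits with 1 library left out. Trim24, a cofactor of nuclear receptors, had 20.9, 36.5, 26.1 and 29.7 CPM at 30 days against 82.2, 101, 83.8 and 118 CPM at 9 days (log2 -1.76, SE 0.20, edgeR adjusted p = 0.0128). Cers6, a ceramide synthase, had 7.88, 10.7, 17.3 and 11.8 CPM at 30 days against 40.5, 37.9, 31.7 and 41.8 CPM at 9 days (log2 -1.70, SE 0.21, edgeR adjusted p = 0.0177). The groups of all 3 were apart, and with 1 library left out Trim24 was called in 6 and Cers6 in 4 of 8 fits.

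Mitosis genes had lower levels at 30 days, with 1 call. Of 24 mitosis genes, all measured, 1 fell, against 0.194% of all genes, which was cyclin A2 (Ccna2). It had 1.68, 1.91, 0.802 and 0.676 CPM at 30 days against 4.59, 8.03, 3.54 and 5.26 CPM at 9 days (log2 -2.17, SE 0.30, edgeR adjusted p = 0.0334, in 2 of 8 fits with 1 library left out). All 24 had a log2 below 0 and an unadjusted p under 0.05, which 9.66% of all genes had in this direction, and 11 of 24 did not overlap between the times, as for 4.24% of all genes lower at 30 days. The list's median was -2.06. DESeq2 called 21 of the 24. With 1 library left out edgeR called 10 without Arid1a KO replicate 2 of 30 days, 1 without Arid1a KO replicate 1 of 9 days and none in the other 6 fits, and it called none without the genotype block. The proliferation marker Mki67 stood at 4.94, 6.84, 1.16 and 1.06 CPM at 30 days and 16.3, 21.7, 6.32 and 21.4 CPM at 9 days (log2 -2.56, SE 0.51, edgeR adjusted p = 0.0749). Its 2 groups overlapped between Arid1a KO replicate 2 of 30 days and WT replicate 1 of 9 days. Cenpm, a centromere protein outside the list, fell by 1.93 (SE 0.30, edgeR adjusted p = 0.0459, in 2 of 8 such fits). The 23 genes of DNA replication were all below 0, with a median of -0.91, 11 at an unadjusted p under 0.05 and none called. The smallest p belonged to the ribonucleotide reductase subunit Rrm2 (log2 -1.57, edgeR adjusted p = 0.141), at 24.5 CPM in Arid1a KO replicate 2 of 30 days and 3.83 to 7.18 CPM in the other 3 livers of that time, against 21.2 to 33.6 CPM at 9 days.

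Markers on the list of Kupffer cells and macrophages moved in the same direction as the mitosis genes. None of 14 passed, and 14 of 14 had a log2 below 0, as did 51.7% of all genes. An unadjusted p under 0.05 was reached by 13, and by 9.66% of all genes in this direction. The times did not overlap in 6 of 14, as for 4.24% of all genes lower at 30 days. DESeq2 called 9 of the 14. The median log2 of the 14 markers was -1.33. Their summed level was 703, 1054, 794 and 368 CPM at 30 days and 1259, 2419.8, 1040.2 and 1951 CPM at 9 days, so that Arid1a KO replicate 2 of 30 days and WT replicate 1 of 9 days overlapped. C1qa, a complement component made by macrophages, had 46.8, 69.8, 43.4 and 21.7 CPM at 30 days and 92.5, 145, 72.7 and 118 CPM at 9 days (edgeR adjusted p = 0.0885). No marker of this list was at 0 in all 8 libraries. The separate list of recruited monocyte and scar-associated macrophage markers had 9 of 11 measured members below 0 and none called. That list summed to 127, 347, 84.9 and 67.8 CPM at 30 days and 146, 166, 87.3 and 96.5 CPM at 9 days. Its highest sum was thus that of Arid1a KO replicate 2 of 30 days. Neutrophil markers summed to 3.63 to 13.7 CPM at 30 days and 15.1 to 23.3 CPM at 9 days, with 6 of 6 measured members below 0 and none called. Markers of endothelial cells (median -0.05, 6 of 13 above 0), stellate cells (0.03, 7 of 14 above 0) and hepatocytes (0.10, 9 of 14 above 0) had no common direction. Lymphocyte markers were lower too, with 12 of 12 measured T and NK cell markers (median -0.78) and 9 of 9 B and plasma cell markers (-0.55) below 0. Mesothelial markers had 6 of 7 below 0 (-0.57). None of these was called. The part of all these cell types in the levels of other genes was not tested.

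**Figure D3:**
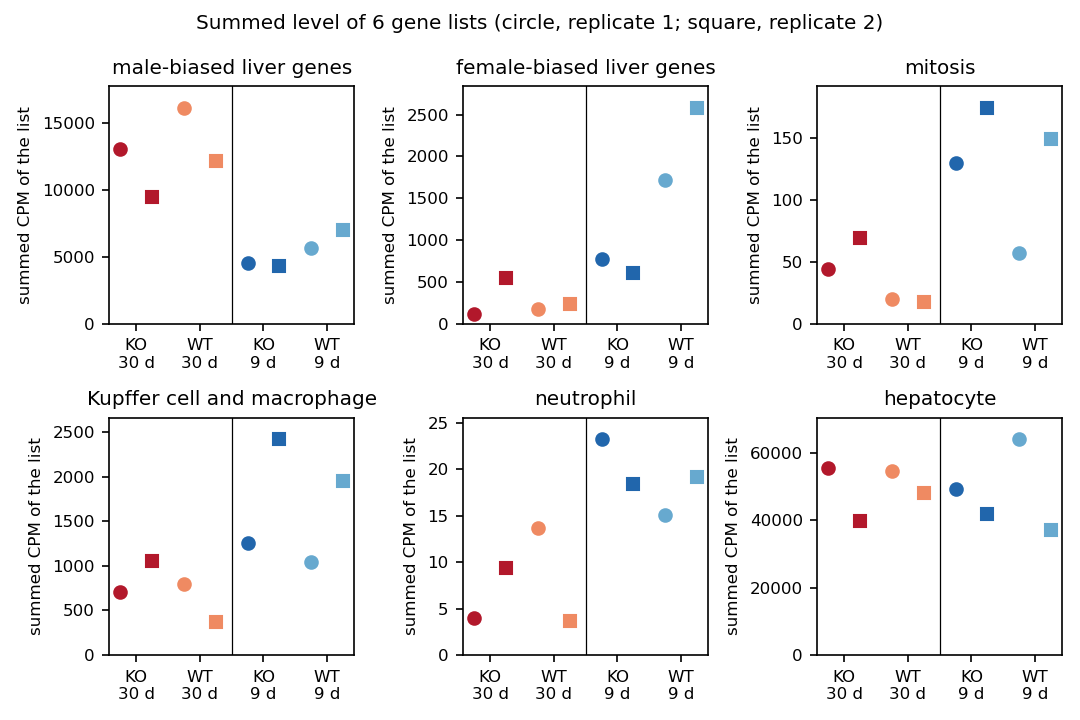
Summed CPM of 6 gene lists in each liver on axes that start at 0, with circles for replicate 1, squares for replicate 2, reds for 30 days and blues for 9 days. The male-biased sum is 9494 to 16156 CPM at 30 days and 4280 to 6994 CPM at 9 days, and the female-biased sum 113 to 547 CPM and 599 to 2585 CPM, while hepatocyte markers overlap.

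Most members of the acute phase and interferon response lists had a log2 below 0, as did 51.7% of all genes, and 1 member of the 2 lists fell, against 0.194% of all genes. Of 22 acute phase genes 18 were below 0 and none passed, with a median log2 of -0.54 and 9 at an unadjusted p under 0.05. Saa3, a serum amyloid protein, had 6.73, 15.3, 5.44 and 7.14 CPM at 30 days against 34.6, 26.1, 25.2 and 37.2 CPM at 9 days (log2 -1.86, SE 0.31, edgeR adjusted p = 0.0534). Serpina3n, a secreted protease inhibitor, was at 1091, 876, 501 and 495 CPM at 30 days and 1873, 2031, 798 and 753 CPM at 9 days (edgeR adjusted p = 0.0572), and was lower at 30 days in each genotype. Of 26 interferon response genes 24 were below 0 (median -0.57) and Gbp3, a guanylate-binding GTPase, fell. It had 41.1 and 42.8 CPM in Arid1a KO and 11 and 6.42 CPM in WT at 30 days. At 9 days it had 97.3 and 117 CPM in Arid1a KO and 22.8 and 38.5 CPM in WT (log2 -1.59, SE 0.23, edgeR adjusted p = 0.0351, in 2 of 8 fits with 1 library left out). The 2 times overlapped over both genotypes and not within either. Of 19 p53 targets 14 were below 0, with a median of -0.33 and none called. Aen, a nuclease, and Pmaip1, which promotes cell death, had log2 values of -0.75 and -2.06 (edgeR adjusted p = 0.0798 and 0.0821).

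The lists of cholesterol synthesis, fatty acid synthesis, fatty acid oxidation and targets of the xenobiotic receptors CAR and PXR held no called member. The called genes Acot3, Eci3, Cers6, Sult2a1, Sult2a2 and Sult3a1, described above, are on none of them. Values of these sulfotransferases with the agonist are given under the other observations, and their dependence on CAR or PXR was not tested. Of 23 cholesterol synthesis genes 19 were above 0, with a median of 0.36. The sterol carrier Stard4 had 219, 182, 268 and 281 CPM at 30 days against 139, 126, 178 and 193 CPM at 9 days (log2 0.58, edgeR adjusted p = 0.0700) and was higher at 30 days in each genotype. Of the genes that make fatty acids 11 of 16 were above 0 (median 0.22), and of those that oxidise them 10 of 22 (median -0.11). Of 27 targets of CAR and PXR 13 were above 0, with a median of -0.00089. Cyp2c55 stood at 131, 47.4, 45.2 and 5.70 CPM at 30 days against 2.85, 4.66, 1.35 and 1.96 CPM at 9 days (log2 4.23, SE 0.67, edgeR adjusted p = 0.0502). Cyp2b10, the classic CAR target, was at 298 and 329 CPM in the replicate 1 livers of 30 days and at 8.34 and 0.465 CPM in the replicate 2 livers, against 0.725 to 8.35 CPM at 9 days (log2 5.74, SE 1.76, edgeR adjusted p = 0.165). Its high values are thus those of 2 of the 4 livers of 30 days. Cyp7a1, the rate-limiting enzyme of bile acid synthesis, had 132, 321, 61.8 and 334 CPM at 30 days and 232, 389, 418 and 218 CPM at 9 days (edgeR adjusted p = 0.647).

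Some clock genes set the replicate 1 livers of 30 days apart. The core clock has Arntl and Clock as activators and the Per, Cry and Nr1d genes as repressors, and Dbp, Usp2 and Ciart are output genes, all cycling over the day. None of the 19 members of both clock lists passed, with medians of 0.72 over 6 morning genes and -0.35 over 13 evening genes. Arntl had 55.5, 1.46, 17.6 and 1.23 CPM at 30 days, against 2.99, 2.92, 7.52 and 2.05 CPM at 9 days. Dbp had 5.68, 306, 57.3 and 370 CPM at 30 days, against 89.6, 223, 55.4 and 177 CPM at 9 days. Usp2 had 2.00, 97.5, 9.81 and 116 CPM at 30 days, against 101, 76.9, 93.5 and 116 CPM at 9 days. Ciart had 0.736, 38.7, 2.59 and 54.4 CPM at 30 days, against 28.5, 23.2, 31.1 and 43.0 CPM at 9 days. In both genotypes the replicate 1 liver of 30 days was thus above every 9-day liver in Arntl and below every one in Usp2 and Ciart. The replicate 2 livers of 30 days were nearer the 9-day values in Usp2 and Ciart. They lay below all 9-day livers in Arntl and above all of them in Dbp. In Dbp the WT replicate 1 liver of 30 days lay within the 9-day range. The hour at which livers were taken is not given in the sources used here, and its part in any result was not tested.

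With only replicate 2 of the 30-day livers the fit called 12 genes, 7 of them among the 49, and with only replicate 1 it called 549, 43 of them among the 49. The direction of all 49 was the same in both fits. The female-biased list had a median of -3.72 with replicate 2 and -4.66 with replicate 1, and the male-biased list 1.23 and 1.70. Mitosis genes had -1.88 and -2.27. The lists described first thus kept their direction with either replicate of the 30-day livers, while the clock genes Arntl, Clock and Nfil3 turned negative with replicate 2 alone.

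**Figure D4:**
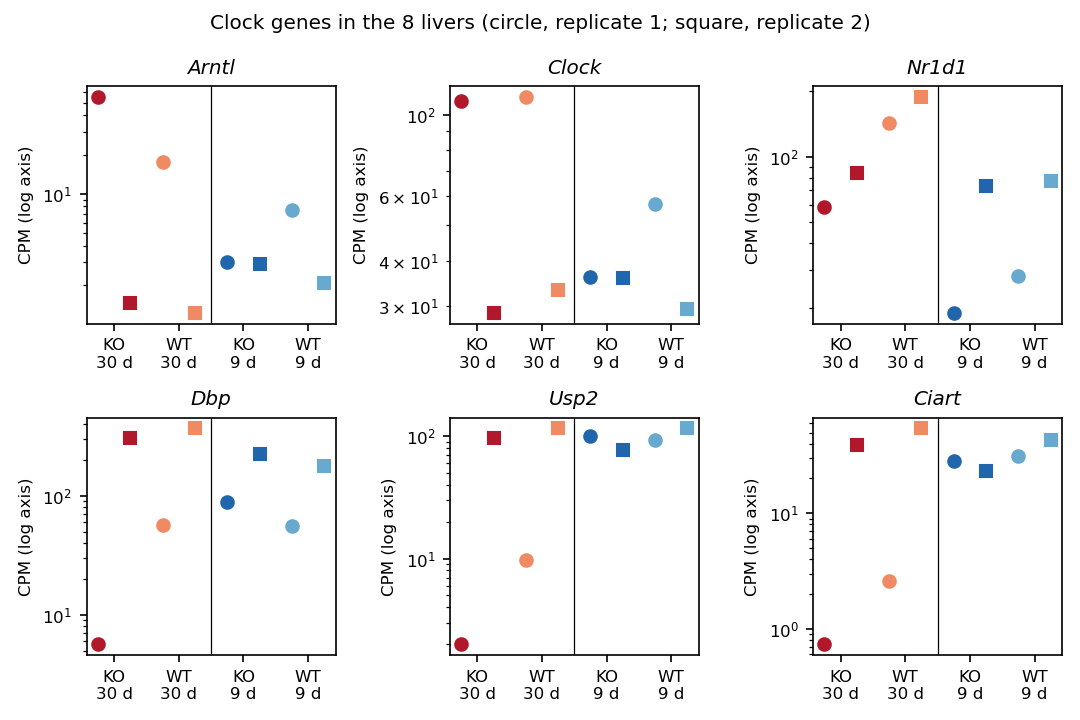
CPM of 6 clock genes on log axes in each liver, with circles for replicate 1, squares for replicate 2, reds for 30 days and blues for 9 days. In Arntl, Clock, Usp2 and Ciart the replicate 1 livers of 30 days lie apart from the replicate 2 livers of both times, for example 55.5 and 17.6 CPM against 1.23 to 2.92 CPM in Arntl.

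The genotypes were then taken apart. In WT livers alone 6 genes passed (0.0376%), with Adgrf1 rising and Slc22a26, Cyp2c40, Cyp2c69, Cyp3a44 and the pseudogene 9030619P08Rik falling. Cyp3a44 fell by 8.07 on the log2 scale in WT (SE 0.78, edgeR adjusted p = 0.0405) and had a log2 of -3.47 in Arid1a KO. The WT count was 0 without either WT liver of 30 days, 10 and 2 without replicates 1 and 2 of 9-day WT, and 62 and 41 without replicates 1 and 2 of 30-day Arid1a KO. In Arid1a KO livers alone 1 gene passed (0.00627%), the unnamed C730027H18Rik, at 43.1 and 41.9 CPM at 30 days against 4.38 and 5.61 CPM at 9 days (log2 3.08, SE 0.19, edgeR adjusted p = 0.00547). In WT livers it had 38.2 and 39.9 CPM at 30 days against 19.6 and 17.7 CPM at 9 days. The Arid1a KO count was 0 without either Arid1a KO liver of 9 days and 5 and 61 without replicates 1 and 2 of 30 days. The test of genotype by time called 0 genes in edgeR and 0 in limma, 7 in DESeq2, and 287 at an unadjusted p under 0.05 in edgeR. Without the low-count filter edgeR called 184. The count of 0 does not show that the genotypes' time effects are alike. The WT and Arid1a KO fold changes come from different libraries, and across the 15956 genes they had Pearson's r of 0.549 and Spearman's rho of 0.480, where genes are not independent replicates. The sign was shared by 10741 genes. The female-biased list had a median of -4.73 in WT and -3.47 in Arid1a KO, the male-biased list 1.28 and 1.70, and mitosis -2.68 and -1.58.

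**Figure D5:**
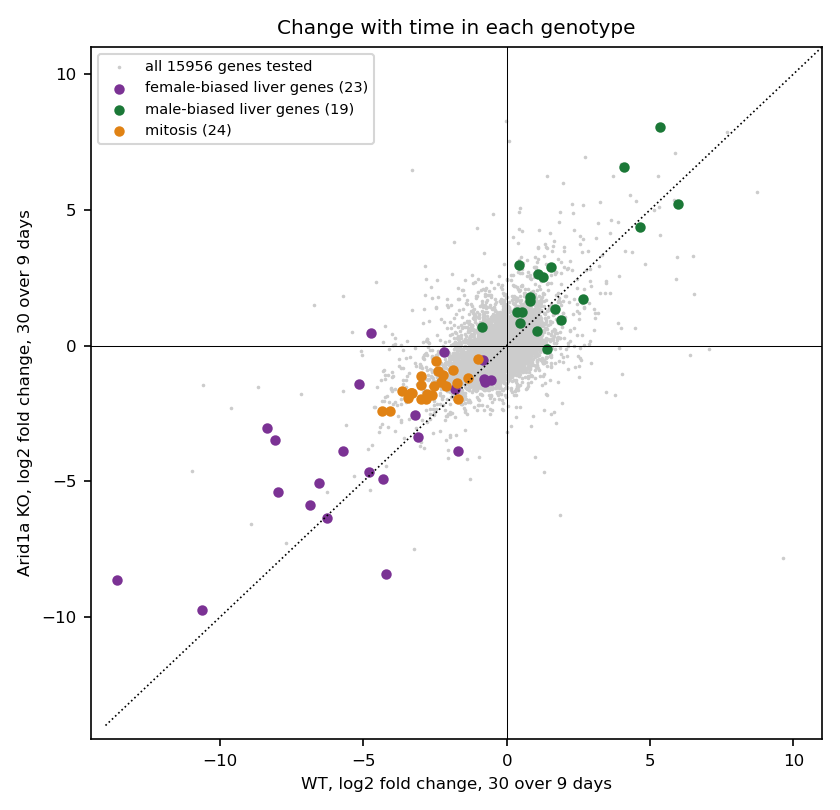
Log2 fold change, 30 over 9 days, in Arid1a KO livers (vertical) against that in WT livers (horizontal), with 1 grey point for each of 15956 genes, 3 gene lists coloured and a dotted line of equal change. Of the 23 female-biased genes and the 24 mitosis genes most lie in the lower left, and the mitosis medians are -1.58 in Arid1a KO and -2.68 in WT.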

How the data were processed

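Polyadenylated RNA was made into TruSeq libraries, per the labels' protocols. Reads were processed with fastp, STAR 2.7.3 and featureCounts against GRCm38.p6, per the submitters' processing notes. The sources used here do not give the annotation release or the strand setting. The values used are read counts per gene, whole numbers as deposited by the authors, for 55291 genes. The signal values of the authors' deposited normalized table are these counts times 1 factor per library, as tested on the file, and enter 1 alternative. The members and the lists of genes (50 in all, with 37 pathways and 13 cell types) were chosen with earlier results of these data known.

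Groups come from the labels. Genes were filtered with filterByExpr, scaled by TMM and tested with edgeR 4.0.16 (R 4.3.3), with 5 residual degrees of freedom in the pooled fit and 4 in the fit of 4 groups. Calls have a Benjamini-Hochberg adjusted p under 0.05. A standard error (SE) was taken as the size of the log2 change over the root of F. These p-values measure the spread between these samples. In the pooled fit that spread includes any difference between WT and Arid1a KO in the change with time. Named genes were up to 15 per direction with the largest fold change, a mean of at least 2 CPM, no overlap and no predicted symbol, up to 4 called members (or 2 with the smallest p) per list, the clock lists and some genes followed throughout. One gene so chosen is not reported here. The promoters of clock genes, which that rule names, are not shown because no clock gene was called. Symbols matched GENCODE M21 for 96.4% of genes and give positions. Alternatives used RLE scaling, DESeq2 1.42.0, limma 3.58.1 on log2(normalized value + 1), other filters, samples and blocks. Counts of 3 correspond to 0.0906 to 0.315 CPM per library. The procedure was tested on 3 draws of simulated counts, in which 37 of 511 calls were false. It recovered 97 of 201 changes of 2-fold, 183 of 201 of 4-fold and 194 of 198 of 8-fold. These figures describe the simulated counts only. Whether they hold for the 8 livers was not tested. Figures were drawn with matplotlib 3.10.9.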

Additional observations from a re-analysis of the deposited data

Results flagged for a closer look

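Over 57 named genes and both times, 114 sets of 4 livers were examined for a single liver far from the other 3. Each set held livers of both genotypes. The 5 sets flagged are no more than the 1 in 20 that chance gives, so they are listed as a description. At 30 days Chrna4 was high in Arid1a KO replicate 1, at 85.05 CPM against 24.9 to 32.8 CPM in the other 3 livers, and Bhlhe40, a clock repressor, was high in WT replicate 2, at 330 CPM against 87.5 to 119 CPM. The flags for Sult3a1 (0.0891 CPM in WT replicate 1) and Sult2a1 (0.0340 CPM in Arid1a KO replicate 2) at 30 days each rest on 1 read, with 0 in the other 3 livers. At 9 days Arntl was high in WT replicate 1, at 7.52 CPM against 2.05 to 2.99 CPM. No difference between the genotypes' changes passed edgeR's test over all genes.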

How the results depend on the processing

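The count of 49 genes called at 30 against 9 days was 51 with RLE scaling and 48 with the mean of 4 group coefficients. It was 1789 without a low-count filter, 1005 with DESeq2, 80 with limma on the authors' values, 90 with all 14 livers in the fit and 16 without the genotype block. It was 549 with only replicate 1 and 12 with only replicate 2 of the 30-day livers, and 14 to 422 with 1 library left out. The direction of the 49 was the same in each of these settings. In WT the count of 6 was 1000 without a filter, 268 with DESeq2, 69 with only the 4 libraries compared and 0 to 62 with 1 library left out. In Arid1a KO the count of 1 was 782 without a filter, 155 with DESeq2, 4 with limma, 2 with all 14 livers, 0 with only the 4 libraries compared and 0 to 61 with 1 library left out. The 0 genes of genotype by time were 184 without a filter and 7 with DESeq2. The cause of these differences was not tested.

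The labels tie the replicate numbers to no shared animal or batch. Correlations of same-numbered deviations between groups were 0.027 to 0.269, all above 0 and above 0.1 in 4 of 6 pairs of groups. The main fit did not take the numbers as pairing the samples, and a link between same-numbered samples was not excluded. Replicate 1 was below replicate 2 in all 4 groups in Dbp, Nr1d1, Nr1d2 and Tef and above it in Arntl, Clock, Cry1 and Nfil3. With the replicate number as a block the count was 81 at 30 against 9 days, 46 of them among the 49, and 1 in WT, and the log2 of Dbp was -0.26. Dbp was also negative with limma (-0.57).

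Genes not called changed sign in some settings. With only replicate 1 of the 30-day livers the log2 was -0.039 in Nr1d2, -2.34 in Dbp and -0.73 in Bhlhe41. With only replicate 2 it was -0.0063 in Arid1a, -0.13 in Arid1b, 0.15 in Per1, 0.084 in Per3, 0.41 in Tef, 0.57 in Ciart, 0.30 in Bhlhe40, 0.15 in Usp2, -1.44 in Arntl, -0.34 in Clock, -0.67 in Nfil3, 0.067 in Cyp7a1 and -0.11 in Fasn. With 1 library left out the log2 ranged over -0.74 to 0.090 in Tef, -1.36 to 0.043 in Ciart, -0.44 to 1.0 in Nfil3, -0.21 to 0.24 in Fasn, -0.49 to 0.92 in Dbp, -0.63 to 0.090 in Bhlhe40 and -0.10 to 1.0 in Bhlhe41. Where a group kept 1 sample, its spread was taken from the remaining groups.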

Other observations

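The other livers of the series give values for the same genes on a scale over all 14 livers, with no test. Hsd3b5 stood at 2.37 and 0.360 CPM in agonist-treated Arid1a KO livers and at 0.0238 and 0.0635 CPM in 9-day Arid1a/b DKO livers, while agonist-treated WT livers had 400 and 57.7 CPM. Cux2 stood at 1.60 and 1.31 CPM in agonist-treated Arid1a KO livers, 0.478 and 0.83 CPM in agonist-treated WT livers and 55.2 and 21.4 CPM in the DKO livers. Sult3a1 was at 0.975 and 35.8 CPM in agonist-treated Arid1a KO livers and at 17.1 and 204 CPM in agonist-treated WT livers. Sult2a1 was at 56.5 and 396 CPM in the former and at 1.31 and 70.4 CPM in the latter. Sult2a2 was at 21.7 and 67.6 CPM in agonist-treated Arid1a KO livers and at 0 and 69.3 CPM in agonist-treated WT livers. In the 4 vehicle livers of 30 days Sult3a1 had at most 0.0948 CPM, Sult2a1 0.0361 CPM and Sult2a2 0.0449 CPM. Nox4 was at 39.1 and 37.3 CPM with the agonist in Arid1a KO, 112 and 116 CPM with the agonist in WT, and 0.523 and 3.49 CPM in the DKO livers. For the agonist-treated WT livers the labels disagree on the time, with 9 days in titles and 30 days in the other fields.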
